A study of Mus musculus with 12 samples.

Results

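Chemokines and chemokine receptors were taken as every gene whose name in the files, or whose current symbol, begins with Ccl, Cxcl, Ccr or Cxcr and a digit or l, together with Cx3cl1, Cx3cr1, Xcl1 and Xcr1. The circadian gene Ccrn4l and the kinase gene Ccrk, which share only the letters, were left out. This gave 58 of the 27384 genes on the array, read by 77 of 41174 probes, of which 37 are ligands and 21 are receptors. The 43 genes that rose clearly over background on every array of some group were tested, 30 ligands and 13 receptors. The file names Cxcl4, Cxcl7, Ccrl1 and Ccl27 are given here as Pf4, Ppbp, Ackr4 and Ccl27a.

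Uterine RNA of 12 adult female mice, ovariectomized and rested for 10 to 14 days, was hybridised to one array each. The groups, of 3 mice each, were EAAE E2, EAAE saline, WT E2 and WT saline. All mice were of the strain labelled C57bl6/Jx129, were aged 10 weeks or more and received a single 100 ul injection, of estradiol (E2) at a dose the labels do not state or of saline, 2 h before the uterus was taken. EAAE is the Esr1 genotype in the labels and, by the title of the series, an estrogen receptor alpha that cannot bind DNA. The labels do not give the zygosity of the allele or the cells that carry it. The comparisons address which early responses to E2 are found with this receptor and which basal levels differ with it. Whole uteri were used, so fewer cells of a type and less RNA per cell cannot be told apart.

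Chemokines are small secreted proteins that guide leukocytes along gradients by binding receptors coupled to inhibitory G proteins. Most are named for the spacing of their first cysteines (CC, CXC, C and CX3C), and several receptors bind more than one ligand. Atypical receptors, such as Ackr2, Ackr3 and Ackr4, bind chemokines without G-protein signalling and clear them from the tissue. In the uterus E2 is known to bring in water, eosinophils and macrophages within hours, and chemokines of stroma and epithelium are among the signals for this.

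Levels are log2 intensities relative to the 75th percentile of the same array, so that a level below 0 is one under that percentile; levels of different genes are not set against each other. Replicate numbers name the mice, and differences are in log2 units with their standard error (SE). A difference was called where the Benjamini-Hochberg adjusted p of limma's test, over 19304 genes, was under 0.05. From 63.98 to 74.03% of the probes were well above background on each array. All 10 epithelial, 10 stromal and 9 smooth muscle markers of the uterus were above background on every array. The Esr1 probe was 0.41 (SE 0.09) higher in EAAE than WT under saline and 0.42 higher after E2, while a dimmer Esr1 probe was 0.48 lower after E2. A transcript level does not report the changed amino acids, so it checks neither label.

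Mice numbered 1 stood apart in every group. The arrays EAAE E2 1, EAAE saline 1, WT E2 1 and WT saline 1 were the highest of their 3 for 28, 26, 29 and 27 of the 43 chemokine genes, and for 14, 12, 12 and 15 of 15 macrophage markers. Over all genes these arrays were the highest for 30.4, 32.2, 36.2 and 27.5%. Array position followed the groups. Position 4 of each slide held EAAE E2; the EAAE saline arrays lay at positions 2, 3 and 3, the WT E2 arrays at 1, 3 and 2 and the WT saline arrays at 1, 1 and 2. Group and position can therefore be told apart only through a model term for position, in both genotype comparisons and in that of E2 in EAAE. That term took position as a straight-line effect. As position 4 held EAAE E2 alone, the comparisons of that group are separated from position only under this assumption.

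The 250 bases before the transcription start are shown for 6 of the members that differ below, with matches to 8 searched motifs in capitals. They come from RefSeq (GRCm38.p6): Ccl12 (chr11:82101595-82101844, plus strand), Cxcr4 (chr1:128592300-128592549, minus strand), Ccrl2 (chr9:111057519-111057768, minus strand), Cxcl14 (chr13:56296552-56296801, minus strand), Cxcl15 (chr5:90794284-90794533, plus strand) and Cx3cl1 (chr8:94771930-94772179, plus strand). Each is written 5′ to 3′ on the strand of its gene.
Ccl12: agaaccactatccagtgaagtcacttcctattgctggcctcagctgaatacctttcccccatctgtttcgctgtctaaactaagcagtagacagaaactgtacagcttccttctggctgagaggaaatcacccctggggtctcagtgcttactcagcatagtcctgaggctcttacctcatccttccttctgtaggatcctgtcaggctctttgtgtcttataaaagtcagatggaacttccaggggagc
Cxcr4: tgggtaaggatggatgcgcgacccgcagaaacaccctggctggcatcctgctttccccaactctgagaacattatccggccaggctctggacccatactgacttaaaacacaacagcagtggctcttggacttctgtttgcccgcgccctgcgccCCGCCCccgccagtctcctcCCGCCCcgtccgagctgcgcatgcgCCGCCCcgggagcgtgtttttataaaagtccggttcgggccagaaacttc
Ccrl2: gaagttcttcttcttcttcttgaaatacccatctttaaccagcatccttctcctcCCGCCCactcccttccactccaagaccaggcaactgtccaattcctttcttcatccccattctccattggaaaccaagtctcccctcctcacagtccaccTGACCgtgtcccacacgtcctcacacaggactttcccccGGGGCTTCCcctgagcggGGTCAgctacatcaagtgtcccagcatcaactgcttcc
Cxcl14: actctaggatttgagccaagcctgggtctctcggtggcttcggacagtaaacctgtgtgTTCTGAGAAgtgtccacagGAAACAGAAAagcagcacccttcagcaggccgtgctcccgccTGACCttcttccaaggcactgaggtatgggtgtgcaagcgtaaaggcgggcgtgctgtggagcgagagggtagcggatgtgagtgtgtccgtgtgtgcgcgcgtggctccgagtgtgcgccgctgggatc
Cxcl15: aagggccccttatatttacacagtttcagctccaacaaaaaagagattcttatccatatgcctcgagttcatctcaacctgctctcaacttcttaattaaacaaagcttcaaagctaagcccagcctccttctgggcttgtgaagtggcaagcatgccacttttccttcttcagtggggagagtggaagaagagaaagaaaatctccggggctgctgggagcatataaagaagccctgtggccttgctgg
Cx3cl1: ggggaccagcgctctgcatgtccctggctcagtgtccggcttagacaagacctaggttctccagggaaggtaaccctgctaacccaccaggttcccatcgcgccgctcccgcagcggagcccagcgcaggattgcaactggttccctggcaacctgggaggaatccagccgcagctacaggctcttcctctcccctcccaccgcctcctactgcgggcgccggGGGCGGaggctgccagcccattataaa
The capitals in Cxcr4 are 3 SP1 boxes (GGGCGG), and those in Cx3cl1 are 1. In Ccrl2 they are an SP1 box, an NF-kB match (GGGNNTTCC) and, apart on either side of that match, 2 single estrogen response element arms (GGTCA). In Cxcl14 they are a STAT match (TTCNNNGAA), an interferon response match and 1 such arm. No searched motif was found in the windows of Ccl12 and Cxcl15.

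Both strands were searched in the 43 members whose promoter is in the RefSeq table, 32 of them tested. No member held the full palindromic estrogen response element, 2 arms facing each other with 3 bases between, which 0.0639% of 32851 promoters held. A single arm, which the full element contains at both ends, was in 23 members and in 35.2% of all promoters. The NF-kB 9-mer was in 7 members (4.98% of all) and a longer NF-kB match in 4 (0.356% of all), namely Ccr3 and the neutrophil chemoattractants Cxcl1, Cxcl2 and Cxcl3. AP-1 (TGANTCA) was in 5 members against 6.75% of all, SP1 in 7 against 32.7%, STAT in 4 against 7.02% and the interferon match in 3 against 2.98%. These are matches of letters only.

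The 15 members not tested were the ligands Ccl1, Ccl20, Ccl22, Cxcl11, Cxcl2, Cxcl3 and Cxcl5 and the receptors Ccr1, Ccr10, Ccr1l1, Ccr4, Ccr8, Cxcr1, Cxcr2 and Cxcr5. They were well above background on at most 3 of the 12 arrays. The neutrophil chemoattractant Cxcl2 was above background on 1 array only, WT E2 2, at -4.83. Its other arrays lay at -7.72, -7.68 and -7.63 in EAAE E2, at -7.23, -7.46 and -7.94 in EAAE saline, at -7.55 and -7.21 in the other WT E2 mice and at -6.45, -8.54 and -8.18 in WT saline. Cxcr1 and Cxcr2, the receptors of this ligand family, were each seen on at most 1 array. Of the 43 tested, 36 were above background on all 12 arrays; 27 were called in at least 1 comparison and 16 in none.

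In WT uteri E2 raised the monocyte chemoattractants Ccl12 and Ccl7 and the scavenging receptor Ackr4, and lowered the receptors Cxcr4 and Ccrl2 and the ligands Ccl24, Ccl5, Ccl21c and Cxcl17. This is 3 higher and 6 lower of 43, or 20.9%, where 49.4% of all genes were called (19.6% higher and 29.8% lower). The median change was -0.27 over the members and -0.15 over all genes. With arrays centred on their median instead, the median of all genes was -0.01 and the members' calls were 5 higher and 3 lower. The call count ran from 5, without WT E2 2, to 12 when each array was left out, and was 15 when only the WT arrays were fitted.

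Markers of adipocytes and stroma moved in the same comparison. The summed level of 10 adipocyte markers, as multiples of the array's 75th percentile, was 7.08 to 33.9 in WT E2, against 32.8 to 215 in WT saline, and 8 of the 10 were called lower and 1 higher, Pparg (2.60). The defining adipocyte genes Adipoq (-3.46) and Plin1 (-3.05) were among the 8, and both were above background on all arrays. The sum of 10 stromal markers was 263 to 305 in WT E2, against 397 to 418 in WT saline, with 8 called lower. Of 13 endothelial markers 1 was called higher and 6 lower. The part of these cell types in the differences of the members was not tested.

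Ccl12, a mouse ligand of Ccr2 that draws in monocytes, stood at -0.48, -0.40 and -0.97 in WT E2, against -2.58, -2.91 and -2.60 in WT saline. All E2 values lay above all saline values, and the rise was 2.08 (SE 0.23), or 4.23-fold (adjusted p = 4.67e-05). Within slides it was 1.62 and 2.35. Its probe lies at chr11:82184783-82184842 in the build of the files (mm7), in the same cluster of ligand genes as Ccl2, Ccl7, Ccl11 and Ccl8.

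Ccl7, a ligand of Ccr2 and other monocyte receptors (probe at chr11:82128729-82128788), stood at -1.81, -1.85 and -2.58 in WT E2, against -3.18, -4.53 and -4.08 in WT saline. The groups did not overlap, and the rise was 1.85 (SE 0.46, adjusted p = 0.0068); a 2nd Ccl7 probe gave 1.73. Within slides the values were 0.60 and 2.46, and with slide and position in the fit adjusted p was 0.0703. Ccl2, the major monocyte chemoattractant (probe at chr11:82118723-82118782), stood at 0.22, -0.09 and -1.0 in WT E2, against -0.91, -1.94 and -1.89 in WT saline. Here WT saline 1 lay above WT E2 3, the groups overlapped, and the difference of 1.29 (SE 0.53) was not called (adjusted p = 0.0664).

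Ccl24, which draws in eosinophils through Ccr3, stood at -3.52, -3.63 and -4.17 in WT E2, against -0.88, -2.97 and -1.95 in WT saline. It fell by 1.84 (SE 0.46, adjusted p = 0.00744), while a 2nd probe gave -1.47 and was not called (adjusted p = 0.0521). The saline mice themselves spanned more than that fall, with WT saline 1 the highest. Without 1 array the value ran from -2.36 to -1.32, and with slide and position adjusted p was 0.0597. The other eosinophil ligand, Ccl11, did not pass in this comparison.

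Smaller falls were called for Ccl5, a T cell and monocyte chemoattractant, for Ccl21c, a ligand of Ccr7, and for the mucosal ligand Cxcl17. Ccl5 stood at 1.28, 0.84 and 0.54 in WT E2, against 1.37, 1.54 and 1.5 in WT saline, with a fall of 0.58 (adjusted p = 0.0257). Ccl21c stood at 4.29, 4.22 and 4.12 in WT E2, against 4.87, 4.56 and 4.67 in WT saline, with a fall of 0.49 (adjusted p = 0.0353). Cxcl17 stood at -1.47, -2.09 and -1.82 in WT E2, against -0.78, -1.40 and -1.42 in WT saline, with a fall of 0.59 (adjusted p = 0.0255).

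None of these 3 pairs of groups overlapped. Relative to the median of all genes the changes were -0.44 for Ccl5, -0.34 for Ccl21c and -0.45 for Cxcl17, and all 3 calls were lost with median centring. The Ccl5 call was also lost without WT E2 2, WT E2 3, WT saline 2 or WT saline 3 (adjusted p up to 0.0977). The Ccl21c call was lost without any WT array but WT saline 2 (up to 0.117), and the Cxcl17 call without WT E2 2, WT E2 3 or WT saline 1 (up to 0.103). Ccl21c has near-identical copies in the mouse genome, which one probe may read together.

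Cxcr4, the receptor of Cxcl12 on leukocytes, endothelium and progenitor cells (probe at chr1:128468640-128468699), stood at -3.74, -3.96 and -3.89 in WT E2, against -1.39, -1.38 and -1.54 in WT saline. The groups were far apart with little spread, and the fall was 2.42 (SE 0.15), so that Cxcr4 was 5.37-fold lower after E2 (adjusted p = 8.66e-07). It was -2.50 within each of 2 slides, and -2.02 on a 2nd probe. Ccrl2, an atypical receptor that binds chemerin and presents it to other cells, stood at -1.91, -2.35 and -1.88 in WT E2, against -0.19, -0.28 and -0.28 in WT saline. The saline mice agreed closely, and the fall was 1.80 (SE 0.13, adjusted p = 2.9e-06), with -1.95 on a 2nd probe.

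Ackr4, which clears Ccl19, Ccl21 and Ccl25, stood at -3.70, -3.53 and -3.78 in WT E2, against -4.06, -4.05 and -4.69 in WT saline. The rise of 0.60 (SE 0.22, adjusted p = 0.0429) is the weakest of the 9 calls. Its adjusted p was 0.0673 with slide as a block and reached 0.159 when single arrays were left out, the call being lost for 8 of 12 arrays: all 3 WT E2, all 3 EAAE saline, EAAE E2 2 and WT saline 3. Cxcr4, Ccrl2 and Ccl12 were the 3 members called under all alternatives run for this comparison. Cxcl16 was not called on the probe that stood for the gene (0.305, adjusted p = 0.107). A 2nd Cxcl16 probe, above background on all 12 arrays, was called higher, at 0.477 (adjusted p = 0.0171).

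**Figure D1:**
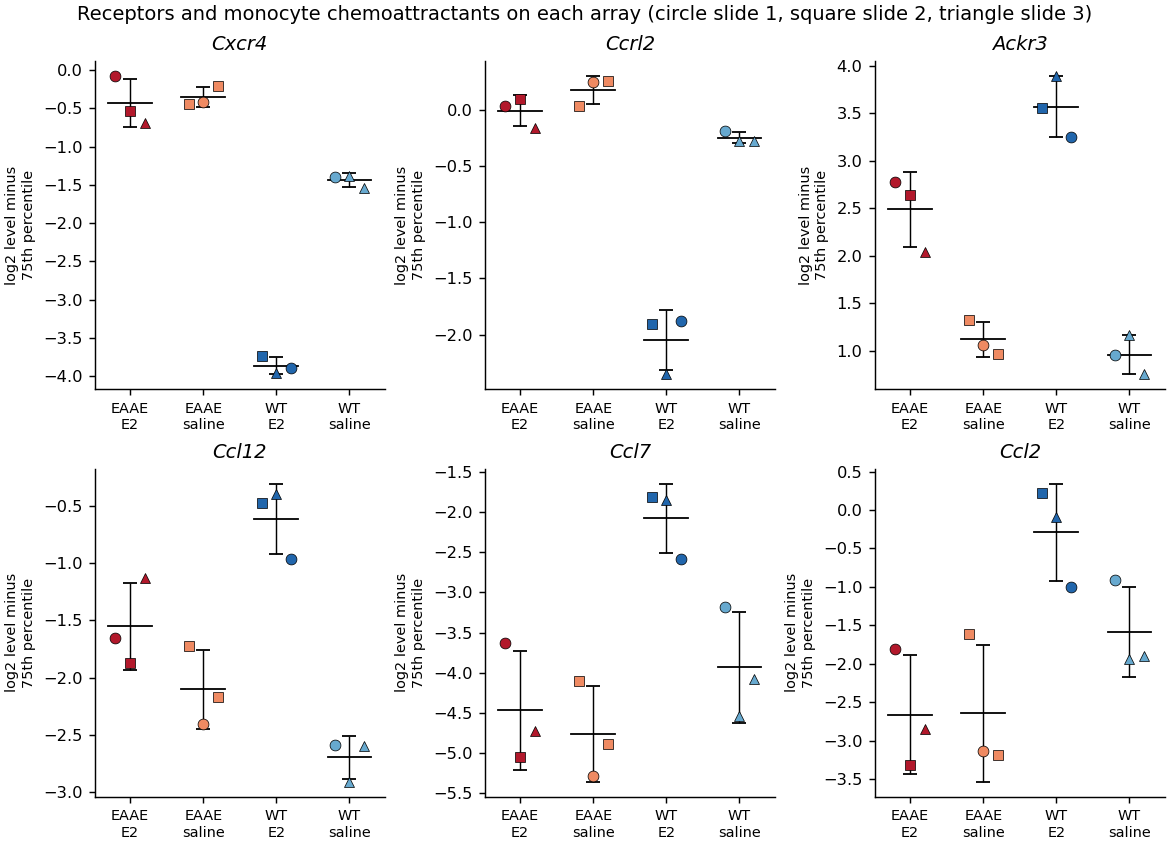
Log2 level relative to the 75th percentile on each array (vertical axis) for the receptors Cxcr4, Ccrl2 and Ackr3 and the monocyte chemoattractants Ccl12, Ccl7 and Ccl2, in the 4 groups; points are mice, shaped by slide, with the mean and SD of 3 mice as bars. Cxcr4 lay between -3.96 and -3.74 in WT E2, below all other groups, whereas Ccl12 lay highest there.

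Among the members that missed the threshold in WT, the most negative differences were those of Cxcl13 (-1.56), Ccl9 (-1.51) and Ccl6 (-1.32), with adjusted p of 0.186, 0.148 and 0.125. Cxcl13, which draws in B cells, was above background on 1 of 3 WT E2 arrays; Ccl6 and Ccl9 are made by myeloid cells in mice. Ccl6 stood at 0.69, 0.65 and 0.39 in WT E2, against 2.64, 1.42 and 1.62 in WT saline, and Ccl9 stood at -1.72, -1.42 and -2.21 in WT E2, against 0.95, -1.22 and -0.56 in WT saline. The Ccl6 groups did not overlap, and WT saline 1 was far above its group for both genes. That array also had the highest summed level of the 15 macrophage markers, all of which were above background on all arrays. These sums, as multiples of the array's 75th percentile, were 89.3 to 114 in WT E2, against 142 to 224 in WT saline, and 3 of the 15 markers were called lower. Their part in these differences was not tested.

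In EAAE uteri E2 changed no member past the threshold on the probe that stood for the gene. None of 43 was called by limma, where 1.43% of all genes were (0.684% higher and 0.751% lower), and 5 had an unadjusted p under 0.05. These were the ligands Cxcl12, Cxcl14, Ccl4, Ccl5 and Ccl12, all higher after E2. The share of all genes under that unadjusted threshold was not counted, so these 5 do not set the members apart. The median change was 0.29 over the members and 0.02 over all genes, and single changes ran from -0.45 for Ackr4 to 1.37 for Cxcl13.

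The smallest adjusted p was that of Cxcl12, the ligand of Cxcr4 made by stroma. It stood at 4.0, 3.85 and 3.87 in EAAE E2, against 3.29, 3.29 and 3.60 in EAAE saline. The groups did not overlap, and the difference was 0.51 (SE 0.11, adjusted p = 0.0539). With only probes above background on all 12 arrays, with median centring, with normexp background or without EAAE saline 3 it was the 1 member called. A 2nd Cxcl12 probe, of another transcript and above background on all 12 arrays, gave 0.13 and was not called (adjusted p = 0.836). Cxcl14 stood at 1.61, 1.49 and 1.81 in EAAE E2, against 1.02, 1.09 and 0.94 in EAAE saline, a difference of 0.62 (SE 0.17, adjusted p = 0.109) that was called without WT saline 2. Ccl4 differed by 0.89 (adjusted p = 0.160) and was called with the replicate number as a block. A 2nd Ccl25 probe, of another transcript and above background on all 12 arrays, was called at 0.43 (SE 0.09, adjusted p = 0.0453), while the brighter Ccl25 probe gave -0.14 (adjusted p = 0.649). In the difference of responses the 2nd Ccl25 probe was also called, at 0.56 (adjusted p = 0.00598), and the brighter one gave -0.08 (adjusted p = 0.783). Between the genotypes after E2 the 2nd Ccl25 probe was called at 0.75 (adjusted p = 4.14e-05). The brighter one gave 0.34 there (adjusted p = 0.0604), and the dimmest gave 0.07 (adjusted p = 0.733).

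The receptors and monocyte ligands called in WT were not called in EAAE. Cxcr4 stood at -0.08, -0.53 and -0.69 in EAAE E2, against -0.45, -0.42 and -0.21 in EAAE saline, a difference of -0.07 (adjusted p = 0.844). Ccrl2 stood at 0.03, 0.10 and -0.16 in EAAE E2, against 0.03, 0.24 and 0.25 in EAAE saline, a difference of -0.18 (adjusted p = 0.525). The groups overlapped for both receptors. Ccl12 stood at -1.66, -1.87 and -1.14 in EAAE E2, against -1.73, -2.41 and -2.17 in EAAE saline, a difference of 0.55 (SE 0.23, adjusted p = 0.285). Ccl7 stood at -3.63, -5.04 and -4.72 in EAAE E2, against -4.10, -5.28 and -4.89 in EAAE saline, and Ccl2 at -1.81, -3.32 and -2.85 in EAAE E2, against -1.62, -3.13 and -3.18 in EAAE saline. Both overlapped, and mouse 1 was the highest in each of these groups.

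The test of the difference between the responses, EAAE minus WT, called 8 of 43 members (6 higher and 2 lower, 18.6%), where 37.3% of all genes were called (22.2% higher and 15.0% lower). The receptors Cxcr4 and Ccrl2 led: the EAAE response was 2.35 (SE 0.21, adjusted p = 2.52e-05) and 1.61 (SE 0.19, adjusted p = 0.000132) above that of WT. For Ccl12 it was 1.53 below (value -1.53, SE 0.33, adjusted p = 0.00495). For Ccl5, which was 0.59 higher after E2 in EAAE and 0.58 lower in WT, it was 1.17 above (SE 0.27, adjusted p = 0.0066), and a 2nd Ccl5 probe gave 1.16. These 4 were called under all alternatives run. A 2nd probe gave 1.94 for Cxcr4 and 1.89 for Ccrl2. The count was 4 without WT E2 2, 5 without WT E2 3 and 16 without EAAE E2 2, and was 5 with median centring or with no filter on dim probes.

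The other 4 calls were weaker. Ackr4 stood at -3.93, -3.30 and -3.11 in EAAE E2, against -3.02, -2.95 and -3.02 in EAAE saline, so that its EAAE response lay below that of WT (difference -1.04, adjusted p = 0.023; 0.0509 with slide as a block, up to 0.0562 without WT E2 2). The eosinophil receptor Ccr3 stood at -3.10, -3.87 and -4.18 in EAAE E2, at -4.20, -3.92 and -4.11 in EAAE saline, at -3.11, -3.05 and -3.51 in WT E2 and at -2.77, -2.65 and -2.46 in WT saline. Its responses were 0.36 in EAAE and -0.60 in WT, neither called, and differed by 0.95 (adjusted p = 0.0489). Ccl24 differed by 1.87 (adjusted p = 0.0459) and Cxcl12 by 0.44 (adjusted p = 0.0463). A 2nd probe of each was not called, at 1.70 for Ccl24 (adjusted p = 0.120) and 0.35 for Cxcl12 (adjusted p = 0.479).

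The calls of Ccr3, Ccl24 and Cxcl12 were each lost under 18 of 23 alternatives. For Ccr3 these include leaving out any array but EAAE E2 3 (adjusted p up to 0.106), and for Ccl24 any but EAAE E2 2, EAAE saline 2 and WT saline 2 (up to 0.0999). For Cxcl12 they include any but EAAE saline 3 and WT saline 1 (up to 0.102). Ccl7, at -1.56 (SE 0.65, adjusted p = 0.0824), and Ccl2, at -1.31 (SE 0.75, adjusted p = 0.194), were not called, so a difference between the genotypes in their response to E2 was not shown.

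**Figure D2:**
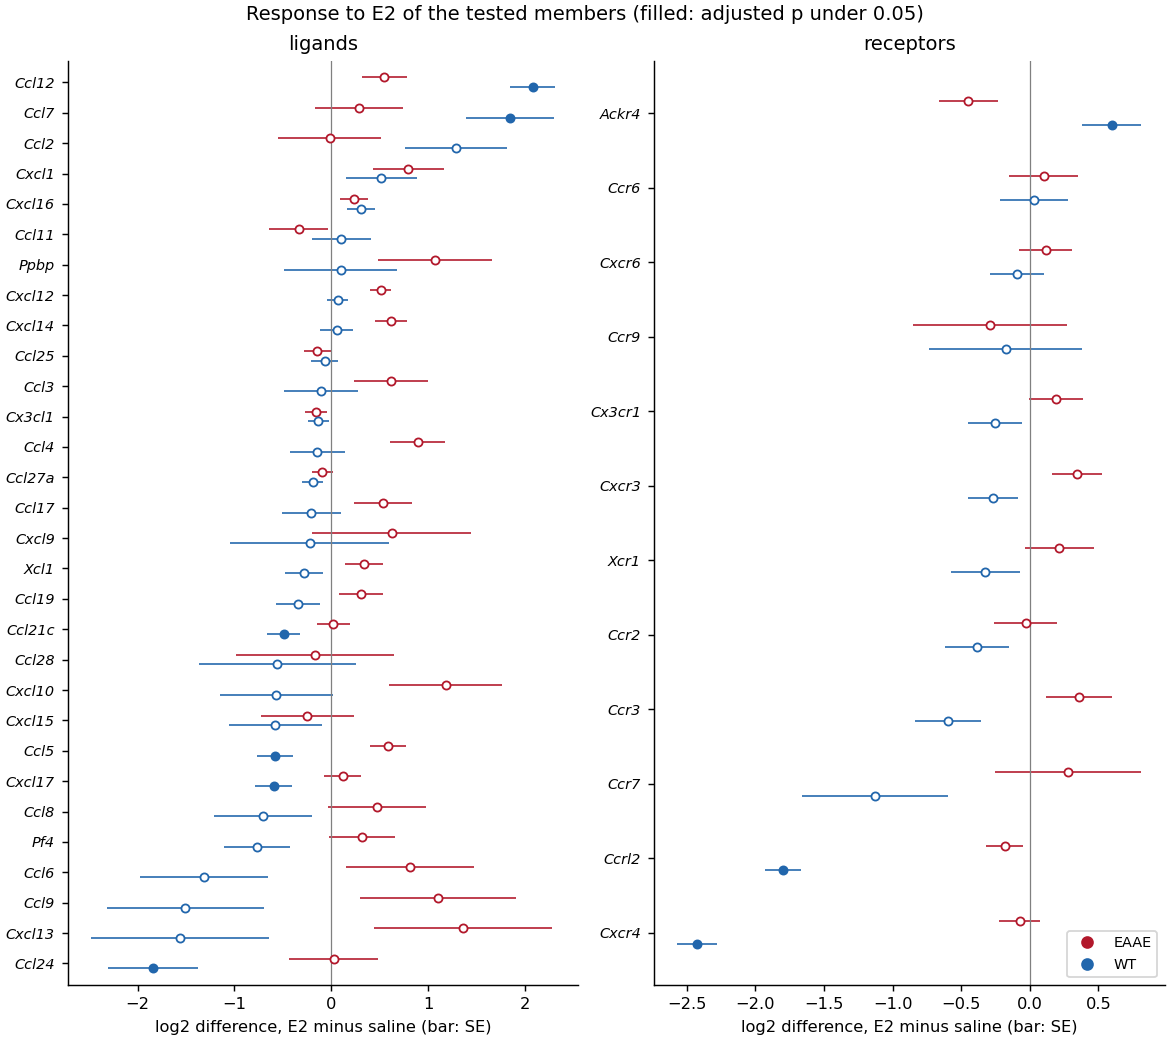
Response to E2 (horizontal axis, log2 difference, E2 minus saline) of the 30 tested ligands and 12 of the 13 tested receptors in EAAE (red) and WT (blue) uteri, with the SE as bars; filled points have an adjusted p under 0.05. All EAAE points are open, and Cxcr4 and Ccrl2 have the WT and EAAE points farthest apart among the receptors.

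Basal levels differed between the genotypes for 22 of 43 members, 6 higher and 16 lower in EAAE saline than in WT saline uteri. This is 51.2%, where 29.6% of all genes were called (14.5% higher and 15.1% lower). The median difference was -0.83 over the members and 0.00 over all genes. Of the 30 ligands 3 were higher and 13 lower, and of the 13 receptors 3 were higher and 3 lower. As the groups of each called member did not overlap, the 1 slide that held both groups could not turn any sign. With slide as a block 17 were called, and with slide and position 3, of which 2 were lower. Over all genes 2803 were called higher and 2912 lower. These became 1758 and 1869 with slide as a block, and 230 and 191 with slide and position.

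The ligands Cxcl14, Cxcl15 and Cxcl17 were the 3 called under all alternatives run. Cxcl14, an epithelial and stromal ligand whose receptor is debated (probe at chr13:55377968-55378027), stood at 1.02, 1.09 and 0.94 in EAAE saline, against 3.36, 3.96 and 3.25 in WT saline. The groups were far apart, and Cxcl14 was 5.69-fold lower in EAAE (difference -2.51, SE 0.17, adjusted p = 5.79e-06). Cxcl15, also called lungkine, a neutrophil chemoattractant of mouse epithelia, stood at -5.35, -6.08 and -6.61 in EAAE saline, against -0.25, -0.50 and -0.27 in WT saline. In EAAE saline it was above background on 1 of 3 arrays and in WT saline on 3 of 3, so that its level in EAAE was mostly not measured. With the dim arrays at the lowest level well above background it was at least 38.1-fold lower in EAAE saline (adjusted p of the fit 2.46e-05). A 2nd Cxcl15 probe gave a fitted difference of -6.39 (adjusted p = 1.41e-06) but was above background on only 6 of 12 arrays. Cxcl17 ran the other way, at 1.10, 0.93 and 0.94 in EAAE saline, against -0.78, -1.40 and -1.42 in WT saline (difference 2.19, SE 0.19, adjusted p = 2.9e-05).

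Cxcl16, a membrane-bound ligand of Cxcr6, stood at -0.36, -0.47 and -0.55 in EAAE saline, against 1.41, 1.05 and 1.16 in WT saline. It was 3.18-fold lower in EAAE (difference -1.67, SE 0.15, adjusted p = 2.88e-05; 0.0717 with slide and position), and -1.39 on a 2nd probe. Cx3cl1, the membrane-bound ligand of Cx3cr1, was higher, at 3.20, 3.51 and 3.26 in EAAE saline, against 2.62, 2.40 and 2.32 in WT saline (difference 0.87, SE 0.11, adjusted p = 0.000316). Its receptor Cx3cr1 was lower, at -2.66, -3.04 and -2.68 in EAAE saline, against -1.71, -1.84 and -1.90 in WT saline (difference -0.97, adjusted p = 0.00443). Neither ligand nor receptor had overlapping groups.

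Cxcr4 stood at -0.45, -0.42 and -0.21 in EAAE saline, against -1.39, -1.38 and -1.54 in WT saline, and was 1.08 higher (SE 0.15, adjusted p = 0.000453). A 2nd Cxcr4 probe gave 0.74, not called (adjusted p = 0.0927). Its ligand Cxcl12 stood at 3.29, 3.29 and 3.60 in EAAE saline, against 3.79, 4.11 and 3.94 in WT saline, and was 0.55 lower (value -0.55, adjusted p = 0.00417). A 2nd Cxcl12 probe, of another transcript, gave -0.12 and was not called (adjusted p = 0.751), and the call was lost with the mean of the probes. The receptor and the ligand thus had opposite signs on their brighter probes.

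The inflammatory CC ligands Ccl3, Ccl4 and Ccl5, which draw in monocytes and T cells, were all lower in EAAE. Ccl4 stood at -3.26, -3.86 and -3.82 in EAAE saline, against -1.53, -1.73 and -1.89 in WT saline, and was 3.81-fold lower (difference -1.93, SE 0.28, adjusted p = 0.000723). Ccl5 stood at 0.70, 0.44 and 0.51 in EAAE saline, against 1.37, 1.54 and 1.5 in WT saline (difference -0.92, adjusted p = 0.00489). Neither overlapped. Ccl3, at -1.61 (adjusted p = 0.0104), was above background on 2 of 3 EAAE saline arrays.

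Ccr3 and its ligand Ccl11 (eotaxin, which draws in eosinophils) were lower as well. Ccr3 was 2.73-fold lower in EAAE saline (difference -1.45, SE 0.24, adjusted p = 0.00151), with all 3 EAAE values at or below -3.92 and all 3 WT values at or above -2.77. Ccl11 stood at -1.77, -2.64 and -2.35 in EAAE saline, against -1.04, -1.17 and -0.74 in WT saline (difference -1.27, adjusted p = 0.0111; 0.0679 with slide as a block). The third eosinophil gene here, Ccl24, differed by 0.12 (adjusted p = 0.870). Of 10 eosinophil and mast cell markers 2 were called lower, the eosinophil genes Siglecf (-3.30) and Prg2 (-2.19), and 1 higher, the histamine-making enzyme Hdc (1.93). The summed level of the 10 markers was higher in EAAE saline, at 39.8 to 47.3, against 12.5 to 18.6 in WT saline. Their part in these differences was not tested.

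Also lower were the lymphocyte ligand Xcl1 (-0.98), Ccl8 (-1.90), the T cell ligand Ccl17 (-1.26), Ccl21c (-0.77) and the platelet ligand Ppbp. Ppbp was below background on all EAAE saline arrays, so its level in EAAE has only a bound, at least 1.52-fold lower (adjusted p = 0.0328). It passed the filter on dim probes only through WT saline, the group it is set against here. The filter thus favoured this call, which is counted among the lower members. The Ppbp call was lost without EAAE saline 1, EAAE saline 3, WT saline 1 or WT saline 3 (up to 0.121). It was also lost with no filter on dim probes, with the replicate block and with slide as a block, alone or with position. Ccl8 was not called in the fit with a slide block (0.0878) or without EAAE saline 3 or WT saline 1 (up to 0.0688). Higher in EAAE were Ackr4 (1.27, adjusted p = 0.00185), Ccrl2 (0.42, adjusted p = 0.0349) and Ccl25 (0.41, adjusted p = 0.0476), the last a ligand that Ackr4 clears.

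Ackr4 stood at -3.02, -2.95 and -3.02 in EAAE saline, against -4.06, -4.05 and -4.69 in WT saline, with no overlap. The other 2 calls were lost under several settings. Ccrl2 was not called on its 2nd probe (0.12, adjusted p = 0.521), in the fit with a slide block (0.215) and without EAAE saline 2, EAAE saline 3 or any WT saline array (up to 0.105). Ccl25 was not called in the fit with a slide block (0.213) or without 10 of 12 arrays, all but EAAE saline 1 and WT E2 3 (up to 0.165). Its other probes gave 0.18 (adjusted p = 0.146) and 0.32 (adjusted p = 0.184), neither called.

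**Figure D3:**
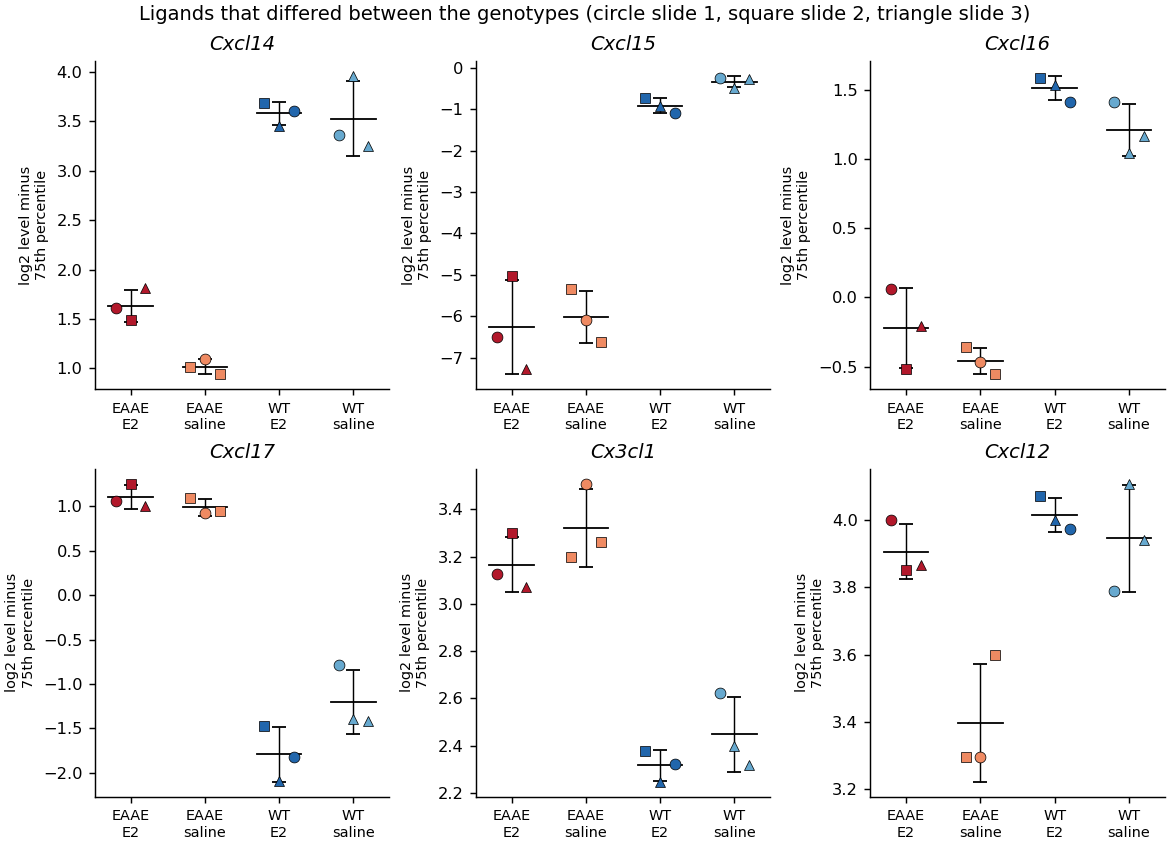
Log2 level relative to the 75th percentile on each array (vertical axis) for the ligands Cxcl14, Cxcl15, Cxcl16, Cxcl17, Cx3cl1 and Cxcl12 in the 4 groups; points are mice, shaped by slide, with the mean and SD of 3 mice as bars. Cxcl14, Cxcl15 and Cxcl16 lay lower and Cxcl17 and Cx3cl1 higher in both EAAE groups than in both WT groups.

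After E2 the genotypes differed for 15 of 43 members, 6 higher and 9 lower in EAAE E2 than in WT E2 uteri. This is 34.9%, where 58.0% of all genes were called (33.5% higher and 24.5% lower). The median difference was -0.04 over the members and 0.11 over all genes. Of the 15, 10 were also called under saline, all 10 with the same sign, 12 members were called under saline only and 5 after E2 only. The same counts over all genes were not made, so these numbers do not set the members apart. The comparisons share no mice, but both contrast the same genotypes on the same slides. Each of the 3 slides held both groups. A sign could turn within a slide only for the members with overlapping groups, Ccl4, Cx3cr1 and Ccl19, and it did for Cx3cr1. Of the 10 adipocyte markers 9 were called higher and 1 lower, with sums of 67.8 to 305 in EAAE E2, against 7.08 to 33.9 in WT E2. Of the 10 stromal markers 9 were called higher, with sums of 381 to 436 in EAAE E2, against 263 to 305 in WT E2. Their part in the differences of the members was not tested.

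Cxcr4 stood at -0.08, -0.53 and -0.69 in EAAE E2, against -3.74, -3.96 and -3.89 in WT E2, so that it was 10.8-fold higher in EAAE (difference 3.43, SE 0.15, adjusted p = 4.93e-08). Within slides the values were 3.81, 3.21 and 3.27. A 2nd Cxcr4 probe gave a smaller difference, 2.68 (adjusted p = 2.76e-05). Ccrl2 was 4.10-fold higher (difference 2.04, SE 0.13, adjusted p = 6.53e-07), at 0.03, 0.10 and -0.16 in EAAE E2, against -1.91, -2.35 and -1.88 in WT E2. Both receptors sat near their EAAE saline levels in EAAE E2.

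Among the ligands Cxcl17 stood at 1.06, 1.26 and 1.0 in EAAE E2, against -1.47, -2.09 and -1.82 in WT E2 (difference 2.9, SE 0.19, adjusted p = 7.38e-07). Cxcl14 stood at 1.61, 1.49 and 1.81 in EAAE E2, against 3.69, 3.45 and 3.61 in WT E2 (difference -1.95, SE 0.17, adjusted p = 4.59e-06). Cxcl16 stood at 0.06, -0.52 and -0.21 in EAAE E2, against 1.59, 1.54 and 1.42 in WT E2 (difference -1.74, SE 0.15, adjusted p = 3.65e-06). These 3 ligands differed between the genotypes whether or not E2 had been given.

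Cxcl15 stood at -6.50, -5.02 and -7.26 in EAAE E2, against -0.74, -0.92 and -1.10 in WT E2, and was above background on 1 of 3 EAAE E2 arrays. It was at least 20.7-fold lower in EAAE E2 (adjusted p of the fit 6.08e-06). Cx3cl1 stood at 3.13, 3.30 and 3.07 in EAAE E2, against 2.38, 2.25 and 2.32 in WT E2 (difference 0.85, SE 0.11, adjusted p = 9.14e-05). A dimmer Cx3cl1 probe went the other way, at -0.21 (adjusted p = 0.720), and the call was lost with the mean of the probes. Cxcr4, Ccrl2, Cxcl14, Cxcl15, Cxcl16 and Cxcl17 were the 6 members called under all alternatives run.

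The monocyte ligands Ccl7, Ccl2 and Ccl12 were lower in EAAE E2. Ccl7 stood at -3.63, -5.04 and -4.72 in EAAE E2, against -1.81, -1.85 and -2.58 in WT E2 (difference -2.39, SE 0.46, adjusted p = 0.00113). Ccl2 stood at -1.81, -3.32 and -2.85 in EAAE E2, against 0.22, -0.09 and -1.0 in WT E2 (difference -2.37, SE 0.53, adjusted p = 0.00305). Ccl12 stood at -1.66, -1.87 and -1.14 in EAAE E2, against -0.48, -0.40 and -0.97 in WT E2 (difference -0.94, adjusted p = 0.00555). None of the 3 overlapped between the groups, and all 3 lost their call with slide and position (adjusted p of 0.173, 0.454 and 0.413).

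Ccl11 stood at -1.89, -3.21 and -2.67 in EAAE E2, against -0.93, -0.94 and -0.77 in WT E2 (difference -1.71, SE 0.31, adjusted p = 0.000733). Ccl24, the other eosinophil ligand, stood at -1.74, -2.26 and -1.36 in EAAE E2, against -3.52, -3.63 and -4.17 in WT E2 (difference 1.99, SE 0.46, adjusted p = 0.00384). The eosinophil ligands thus had opposite signs, and both calls were lost with slide and position (adjusted p of 0.184 for Ccl11 and 0.255 for Ccl24). Ccl4 (-0.89, adjusted p = 0.0198), Cx3cr1 (-0.53, adjusted p = 0.0391) and Ccl19, a ligand of Ccr7 (0.61, adjusted p = 0.040), had overlapping groups, and all 3 calls were lost with slide and position.

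The Ccl4 call was lost without EAAE E2 2, EAAE E2 3 or WT E2 1 (up to 0.0759). That of Cx3cr1 was lost without EAAE E2 2, EAAE E2 3, any WT E2 array, WT saline 2 or WT saline 3 (up to 0.147), and its sign turned on 1 of 3 slides. That of Ccl19, which has near-identical copies, was lost without EAAE E2 1, EAAE E2 3, EAAE saline 2, WT E2 1, WT E2 3, WT saline 1 or WT saline 3 (up to 0.135), and a 2nd Ccl19 probe gave 0.27 (adjusted p = 0.257).

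**Figure D4:**
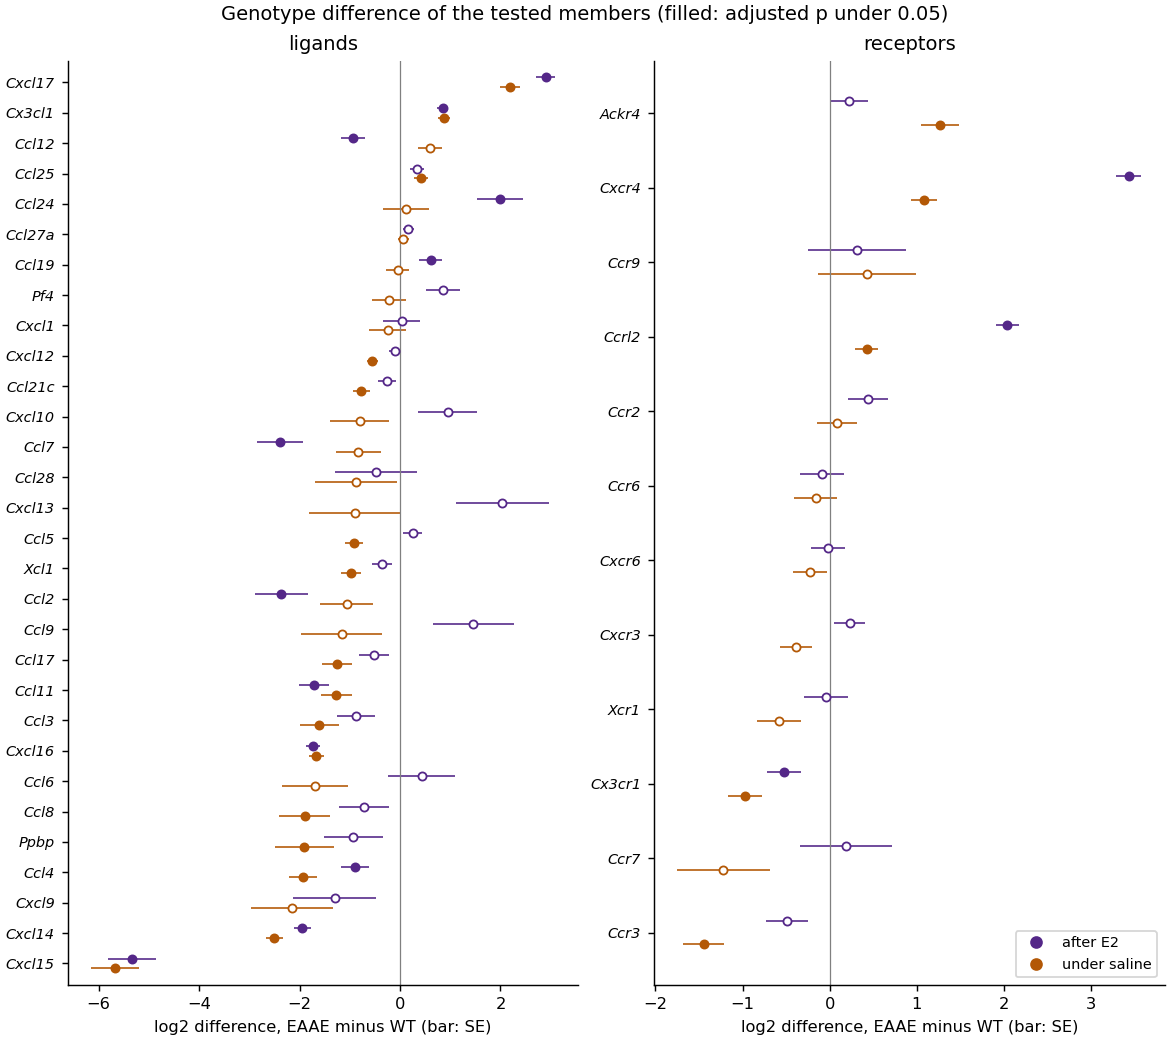
Genotype difference (horizontal axis, log2 difference, EAAE minus WT) of the 30 tested ligands and 12 of the 13 tested receptors after E2 (purple) and under saline (orange), with the SE as bars; filled points have an adjusted p under 0.05. Cxcl15 (fitted values, its EAAE level being mostly not measured), Cxcl14 and Cxcl16 lie left of 0 and Cxcl17 right of 0 in both, and Cxcr4 is at 3.43 after E2 and 1.08 under saline.

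Cxcl1, a neutrophil chemoattractant, and Cxcl10 did not pass in any comparison. Cxcl1 stood at -4.05, -5.46 and -4.41 in EAAE E2, at -5.44, -5.61 and -5.26 in EAAE saline, at -5.21, -4.18 and -4.63 in WT E2 and at -4.71, -5.54 and -5.32 in WT saline. Cxcl10, an interferon-induced ligand of Cxcr3, stood at -1.12, -0.99 and -1.44 in EAAE E2, at -1.37, -3.33 and -2.40 in EAAE saline, at -0.98, -1.98 and -3.45 in WT E2 and at -1.45, -1.50 and -1.75 in WT saline. The mice of WT E2 and of EAAE saline were widely spread for Cxcl10. Its E2 differences were 1.19 (SE 0.58, adjusted p = 0.355) in EAAE and -0.57 (SE 0.58, adjusted p = 0.444) in WT.

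The other genes of the chemokine system were read beside the members, and the counts of each list stand against shares of all genes called of 1.43% for E2 in EAAE, 49.4% for E2 in WT, 29.6% between the genotypes under saline and 58.0% after E2. Ackr3, a second receptor of Cxcl12 (Cmkor1 in the files), stood at 2.78, 2.64 and 2.04 in EAAE E2, at 1.33, 1.06 and 0.96 in EAAE saline, at 3.56, 3.89 and 3.25 in WT E2 and at 0.95, 1.17 and 0.75 in WT saline. It was higher after E2 in both genotypes, by 1.37 (SE 0.22, adjusted p = 0.0188) in EAAE and 2.61 (SE 0.22, adjusted p = 6.9e-06) in WT. The EAAE response was the smaller by 1.24 (value -1.24, adjusted p = 0.0102). The EAAE call was lost in the fit with a slide block (adjusted p = 0.0506), with slide and position (0.268), with only the EAAE arrays fitted and without EAAE E2 1, EAAE E2 2, EAAE saline 2 or EAAE saline 3 (up to 0.0706). Cxcr4 and Ackr3, which bind the same ligand, thus moved in opposite directions in WT.

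Ackr2, which clears inflammatory CC ligands, rose after E2 in both genotypes, by 1.05 (adjusted p = 0.0243) in EAAE and 2.02 (adjusted p = 9.88e-06) in WT, and its responses differed by -0.96 (adjusted p = 0.0133). It was lower in EAAE than WT under saline (-1.52) and after E2 (-2.48). The EAAE call of Ackr2 is given without the alternative fits. With only the EAAE arrays fitted, 5 of all genes were called higher and 2 lower after E2, against 132 and 145. Of 13 further chemokine-system genes of other names, which include Ackr2 and not Ackr3, 1 rose and none fell after E2 in EAAE, and 3 rose and 6 fell in WT. Among these in WT were Dpp4, a protease that trims chemokines (-0.62), Rarres2, the chemerin precursor (-0.46), and the chemerin receptor Cmklr1 (0.86). Between the genotypes 1 was higher and 6 lower in EAAE under saline, and 2 were higher and 3 lower after E2. Rarres2 was lower in EAAE in both (-0.94 and -0.45), and Ackr1, which carries chemokines across endothelium, was lower under saline (-1.59).

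Of 30 genes of chemokine receptor signalling, 1 rose and none fell after E2 in EAAE, and 6 rose and 3 fell in WT. The first was the myeloid kinase Fgr (1.36, adjusted p = 0.0458, likewise given without the alternative fits). In WT the calls included the G-protein subunits Gnai3 (0.44) and Gnai2 (0.47) and the arrestin Arrb2 (-0.63). Between the genotypes 3 were higher and 6 lower in EAAE under saline, and 7 were higher and 6 lower after E2. Gnai1 was higher in EAAE in both (0.91 and 1.35), as was the kinase Ptk2b (0.78 and 1.22).

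Of 19 genes of leukocyte adhesion and exit from vessels, none was called after E2 in EAAE, and 1 rose and 6 fell in WT. The rise was that of Icam1 (1.13, adjusted p = 0.000187), an endothelial ligand of leukocyte integrins, and the falls included Cd99l2 (-0.56) and Vcam1 (-1.08). The Icam1 response was the smaller in EAAE by 1.27 (value -1.27, adjusted p = 0.0015). Under saline none was higher and 4 of 19 were lower in EAAE (15.1% of all genes were), among them the integrin Itgal (-0.73) and the selectin Selp (-0.55), and after E2 3 were higher and 3 lower.

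Of 17 inflammatory cytokines and NF-kB genes, none was called after E2 in EAAE, and 5 rose and 3 fell in WT. The NF-kB subunit Rela (0.86), its inhibitor Nfkbia (0.93) and the growth factor Csf3 (1.42) rose in WT, and Tnfaip3, a brake on NF-kB, fell (-0.88). Under saline 1 was higher and 6 lower in EAAE, the lower including Irf7 (-1.36) and Ifng (-1.66), genes of the interferon response, and Nfkbia was the 1 higher (0.76). After E2 3 were higher and 9 lower. The lists were chosen with earlier results of these data known.

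Markers of leukocytes were read beside the members and the same shares of all genes. The macrophage marker sum was 47.6 to 174 in EAAE E2, 46.1 to 67.1 in EAAE saline, 89.3 to 114 in WT E2 and 142 to 224 in WT saline. Of the 15 markers, 10 were called lower and 1 higher (Cd163) in EAAE than WT under saline; after E2 2 were higher (Cd14 and Cd163) and none lower. The sum of 15 T and natural killer cell markers was 2.51 to 2.73 in EAAE saline, against 4.34 to 4.52 in WT saline, with 8 called lower, and 2.97 to 3.61 in EAAE E2, against 3.26 to 4.29 in WT E2, with 1 called lower. Of these, 14 were above background on all arrays, and Trbc1 was not tested.

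Of 7 tested neutrophil markers, 1 was higher and 2 were lower in EAAE than WT under saline; the defining neutrophil markers Ly6g, Elane, Camp, Ngp and Mmp8 did not pass the filter on dim probes. Of 10 dendritic cell markers, 1 was called lower under saline. None of the 10 adipocyte markers was called between the genotypes under saline, with sums of 42.2 to 225 in EAAE saline, against 32.8 to 215 in WT saline, or after E2 in EAAE. Of 6 B cell markers, 1 was called lower under saline and 1 higher after E2. The part of any of these cell types in the differences of Ccl3, Ccl4, Ccl5, Ccl8, Cx3cr1 and Xcl1 was not tested. Of 10 uterine epithelial markers, 6 were higher and 2 lower in EAAE under saline, the lower being Foxa2 (-2.37) and Wnt7a (-0.68), and 6 were higher and 3 lower after E2. The part of epithelium in the differences of Cxcl14, Cxcl15, Cxcl16, Cxcl17 and Cx3cl1 was not tested.

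The array EAAE E2 1 had a macrophage sum of 174, while its group mates had 47.6 and 86.6. Ccl6 followed, at 2.63, -0.52 and 0.91 in EAAE E2 and 0.81, 0.23 and -0.44 in EAAE saline, and so did Ccl9, at 1.48, -2.12 and -0.35 in EAAE E2 and -0.95, -1.30 and -2.06 in EAAE saline. Pf4, a platelet and macrophage ligand, stood at 1.42, 0.21 and 0.91 in EAAE E2, at 0.66, 0.55 and 0.37 in EAAE saline, at -0.06, 0.06 and -0.04 in WT E2 and at 1.53, 0.21 and 0.52 in WT saline. None of these 3 ligands was called in any comparison. Without EAAE E2 1 and WT saline 1, a choice made after seeing the data, the members called were 11 for E2 in WT, 0 for E2 in EAAE, 19 for the genotypes under saline, 19 for the genotypes after E2 and 6 for the difference of responses.

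**Figure D5:**
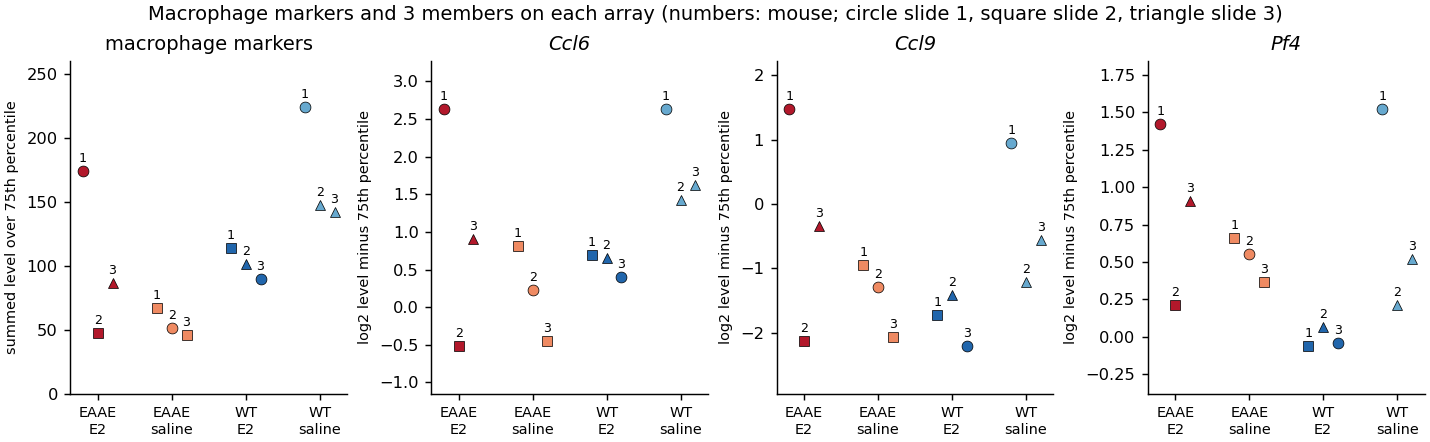
Summed level of 15 macrophage markers (multiples of the array's 75th percentile) and log2 levels of Ccl6, Ccl9 and Pf4 on each array in the 4 groups; numbers give the mouse and shapes the slide. EAAE E2 1 and WT saline 1 are the highest of their groups in all 4 panels.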

How the data were processed

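RNA of 12 mouse uteri was measured on single-colour arrays. Spot intensity is the deposited processed signal of Agilent Feature Extraction 9.5.3.1, per the file headers (9.5 per the submitters' processing notes), a linear intensity corrected for background and for trends across the array. Each deposited intensity was taken to log2 here, less the 75th percentile of its array, and spots of one probe were averaged after 56 to 117 outlier spots per array were dropped. A probe was kept where the scanner software marked it well above background on every array of some group. The brightest probe over all arrays stood for a gene, which left 19304 genes, and the number of mice limits the precision.

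All 12 arrays were fitted together in R 4.3.3 by lmFit and eBayes of limma 3.58.1, 2-sided, with Benjamini-Hochberg adjustment over all genes, in 5 comparisons. Nothing beyond separate mice is stated of the replicates. Alternatives were the slide (which the scan splits the same way) as a block, alone or with array position, median and quantile scaling, normexp background (offset 50), the filter, the probe rule, fits of single comparisons, leaving out each array and the replicate block. The code was tested on simulated data. Tables and plots were made with matplotlib 3.10.9, pandas 2.3.3 and numpy 2.4.6 in Python 3.11.15. Probe coordinates are those of the files (mm7); current names and promoters are RefSeq's (GRCm38.p6), and 5 members (Cxcl17, Cxcl3, Cxcr1, Cxcr2 and Cxcr5) were found by current symbol only. A bound sets the brighter group's mean against, per array, whichever was larger, its own value or the lowest level among probes well above background.

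The members and lists were chosen with earlier results of these data known. Values on every array are given for members called in a comparison, up to 10 with the smallest adjusted p in each, and for Cxcl1, Cxcl2, Cxcl10, Cxcl12, Ccl2, Ccl7, Cx3cl1, Cxcr4 and Ackr3. Up to 4 genes with the smallest p were eligible from each list. Ccl6, Ccl9 and Pf4 were named after their values were seen. Of the members and list genes counted, 2 are not reported here by name.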

Additional observations from a re-analysis of the deposited data

Results flagged for a closer look

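The response to E2 differed between EAAE and WT uteri, by limma's test of the difference itself (EAAE minus WT), for 8 members. It was larger or less negative in EAAE for Cxcr4 (2.35), Ccl24 (1.87), Ccrl2 (1.61), Ccl5 (1.17), Ccr3 (0.95) and Cxcl12 (0.44). It was smaller in EAAE for Ccl12 (-1.53) and Ackr4 (-1.04). With 3 mice per group, no group was large enough to be searched for single outlying arrays.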

How the results depend on the processing

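The 9 calls for E2 in WT became 15 with only the groups compared, 5 with slide and position, and 5 to 12 when single arrays were left out. The 0 calls for E2 in EAAE became 1 with probes above background on all 12 arrays, median scaling, normexp or the replicate block, and 0 to 1 when single arrays were left out. The 22 genotype calls under saline became 3 with slide and position (17 to 23 without single arrays), and the 15 after E2 became 7 (12 to 18 without single arrays). Calls over all genes fell with slide and position too. Under saline they were 230 higher and 191 lower, against 2803 and 2912. After E2 they were 2925 and 2274, against 6470 and 4723. For E2 in WT they were 2576 and 3675, against 3774 and 5755. For E2 in EAAE they were 3 and 1, against 132 and 145, and they were 5 and 2 with only the EAAE arrays fitted. The 8 calls for the difference of responses became 5 with median scaling or no filter and 4 to 16 without single arrays. Called differences kept their sign under every alternative run except Ccl25 under saline, at -0.0437 with slide and position; for all of these the cause was not tested. Median scaling changed the members' split of higher and lower calls for E2 in WT (5 and 3, against 3 and 6) and for the difference of responses (3 and 2, against 6 and 2); over all genes the share higher in WT went to 53.2%, against 39.6%. After the group mean of each gene was taken off, same-numbered mice of different groups correlated by -0.281 to 0.275 over 18 pairs and all genes. Mice with other numbers correlated by -0.356 to 0.353 over 36 pairs. As the labels state no pairing, the mice were fitted as unpaired. These ranges are over all genes, so they cannot show whether equal numbers share an effect on the members, where mice numbered 1 often stood apart. With the replicate block the calls were 9 for E2 in WT (8 shared with the 9 above), 1 for E2 in EAAE, 23 for the genotypes under saline (19 shared with the 22), 18 after E2 (all 15 shared) and 11 for the difference of responses (5 shared with the 8). The fit of only the groups compared was not run for the difference of responses, which uses all 4 groups. Dim probes limit Cxcl15, Ppbp, Ccl28 and Cxcl13, which some arrays did not measure above background.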
